A study of Mus musculus with 6 samples.

Results

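The genes described are 32 genes of the cells that build blood vessels: markers of endothelial cells, which line the vessel, of mural cells (pericytes and smooth muscle cells), which wrap it, and of the basement membrane between them. They were chosen by symbol, as array probe sets annotated with exactly 1 of the listed names. All 32 were found, on 33 of the 41345 probe sets of the array, and all 32 passed the brightness filter (a log2 value of at least 5 on at least 3 of 6 arrays), together making up 32 of the 15619 genes tested. Whole retinas of male mice were compared at postnatal day 17, with the retinas of both eyes pooled into 1 sample and the lens taken out before dissection. The 3 knockout samples have the genotype Chx10Cre+/-;Atrx flox/y and the 3 wildtype samples, littermates, the genotype Chx10Cre-/-;Atrx flox/y, so both groups carry a floxed copy of the X-linked gene Atrx, a chromatin remodeller, and only the knockout group carries Cre. Chx10 drives Cre in retinal progenitors, from which neurons and Muller glia descend; vessel cells do not descend from them. Cre is thus present in the knockout group alone, and what Cre does by itself cannot be told apart from what loss of Atrx does.

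In the mouse retina vessels spread over the inner surface during the first days after birth and then dive to form deeper layers, led by vascular endothelial growth factor (VEGF) from neurons and glia. Norrin, a Wnt-type ligand made by Muller glia, acts on the receptor Fzd4 of endothelial cells and is needed for the deep layers and for the blood-retina barrier. Pericytes are drawn to the new vessel by platelet-derived growth factor and steady it. Amacrine and horizontal cells lie beside the deeper vessel layers, and by the study's own description they are being lost at their peak rate at this age, so the comparison asks here whether vessel genes differ at that time.

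The vascular genes read almost alike in both genotypes, as most of the genes tested did. In limma's test 0 of 32 were called (adjusted p under 0.05 over all 15619 genes), where 0.826% of all genes were called. The smallest adjusted p was 0.161. At an unadjusted p under 0.05 there were 2 of 32 (6.25%), Pdgfrb and Sox18, against 13.5% of all genes. The 3 knockout values lay wholly on 1 side of the 3 wildtype values for 3 of 32 members (9.38%), all 3 lower in knockout retinas, against 20.3% of all genes. The median log2 difference, knockout minus wildtype, was 0.01 over the members and 0.003 over all genes. For 27 of 32 members (84.4%) the difference was under 0.2 in size, against 80.7% of all genes. The 95% interval lay within a 1.5-fold difference either way for 30 of 32 members, as it did for 92.2% of all genes, so larger differences lie outside the intervals of all members but Col4a1 and Col4a2. In such whole-tissue samples fewer vessel cells and less RNA per vessel cell cannot be told apart.

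**Figure D1:**
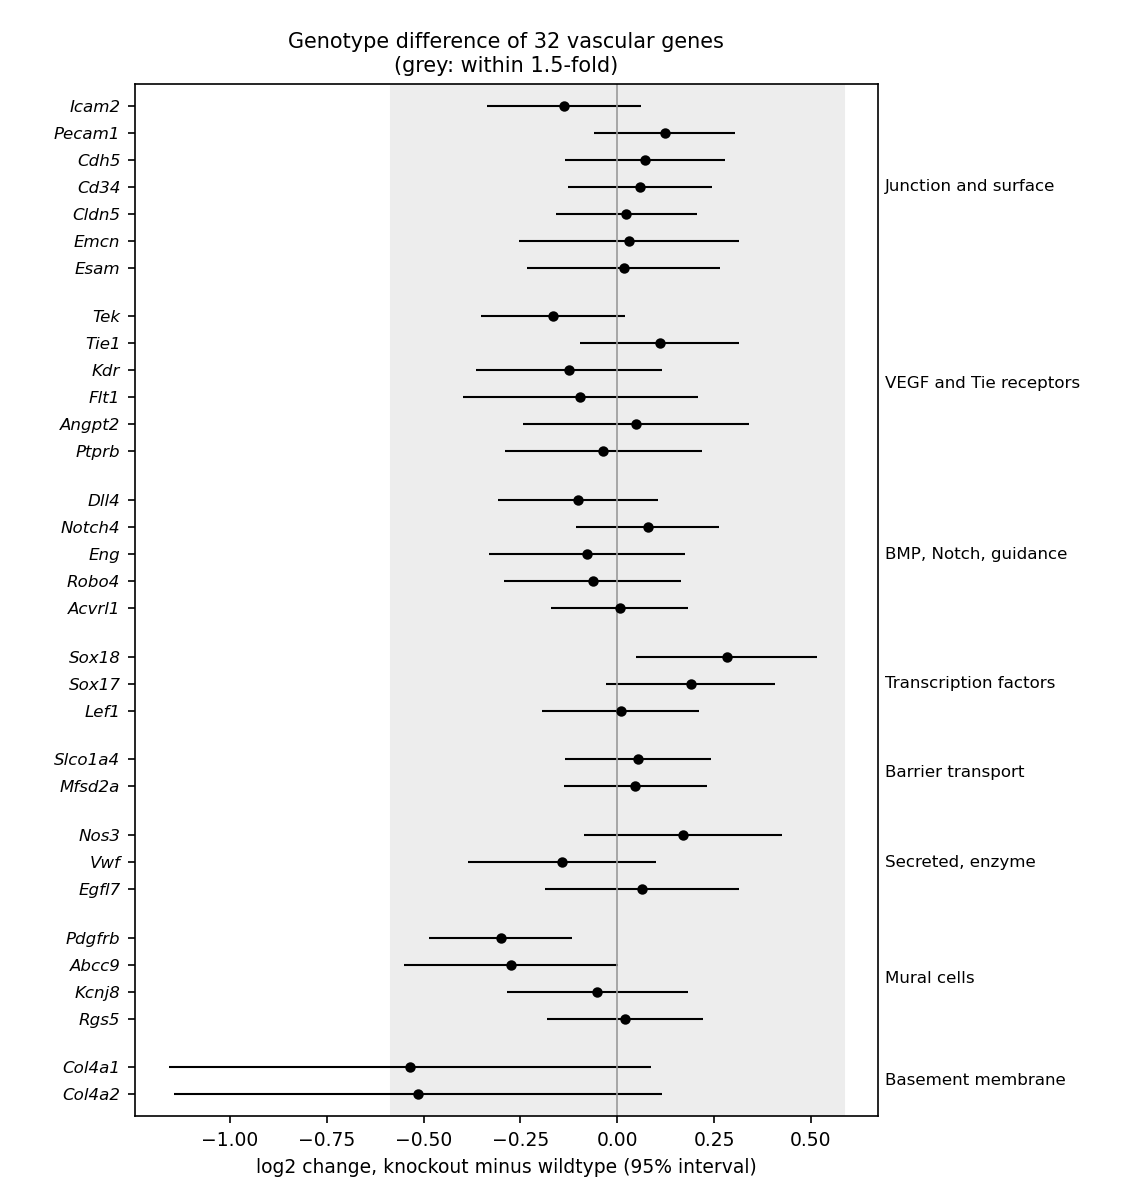
Log2 difference, knockout minus wildtype (horizontal axis), of each of the 32 vascular genes, grouped by role, with bars for limma's 95% interval (3 arrays per group) and grey shading for differences within 1.5-fold. Most points lie near 0, and the intervals of Col4a1 and Col4a2 alone leave the shaded band.

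The arrays differed in what else they held. Lens RNA marked 1 array of each genotype: 16 lens markers averaged 9.88 on knockout 2 and 11.06 on wildtype 1, while the remaining arrays lay between 5.87 and 6.27. Pigment epithelium markers (mean of 16) ran from 7.83 to 8.81 in knockout and from 8.32 to 8.99 in wildtype retinas, and markers of fibroblasts and sclera (mean of 9) from 6.62 to 7.34 and from 7.09 to 7.38. Knockout 1 was lowest in both of these lists. Retinal neuron markers (mean of 13) did not overlap, at 9.36 to 9.46 in knockout and 9.54 to 9.61 in wildtype retinas, and 12 of the 13 were below 0. Among them 0 were called and 4 were lower at an unadjusted p under 0.05: Opn1sw, Prkca, Tfap2b and Onecut1. Over all 15619 genes 1015 were lower at that p. Sag was higher in knockout without overlap (0.13), and Pde6b, Nrl and Grm6 were at -0.02, -0.04 and -0.02. Microglia and blood cell markers (mean of 10) were at 6.32 to 6.47 in knockout and 6.41 to 6.46 in wildtype retinas. Atrx itself read 8.42, 8.72 and 8.33 in knockout and 9.04, 8.86 and 9.17 in wildtype retinas (log2 difference -0.53, SE 0.12, adjusted p = 0.115), with no overlap. Whether its probes lie in the floxed part was not examined. The labels do not say whether the mice of a group came from separate litters. The p-values set the genotype difference against the spread within these groups, and whether the samples are independent is not known.

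The defining endothelial markers Pecam1, Cdh5 and Cldn5 and the pericyte markers Rgs5 and Pdgfrb were all measured, as the name of the gene group asks. The mean over the 26 endothelial members (the 32 without mural and collagen genes) was 6.65, 6.71 and 6.64 in knockout retinas, against 6.64, 6.67 and 6.63 in wildtype retinas. These means span under 0.1 on the log2 scale and overlap between genotypes. The probe set means of 29 of 32 members lay above 5.60, the median of all probe sets and arrays. The 3 below it were Angpt2, Dll4 and Sox17.

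Receptors of vascular growth factors come first in the signalling order. Kdr, the main VEGF receptor of endothelial cells (VEGFR2), read 9.30, 9.65 and 9.33 in knockout retinas and 9.52, 9.57 and 9.57 in wildtype retinas. Flt1, the VEGFR1 gene, whose product binds VEGF and limits it, read 7.29, 7.61 and 7.13 against 7.39, 7.60 and 7.33. For both, knockout 2 was the highest of all 6 arrays while the other knockout arrays were the lowest, so the groups overlapped (log2 differences -0.12, SE 0.10, and -0.09, SE 0.13). Single arrays moved both values. The Kdr difference was -0.06, -0.24 and -0.08 without knockout 1, 2 and 3, and the Flt1 difference was -0.07, -0.23 and 0.01, while without wildtype 2 Flt1 was at -0.01. Neither gene was called in any of these settings.

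The angiopoietin receptor genes pointed opposite ways and neither was called. Tek, which encodes the receptor Tie2, read 5.96, 6.02 and 6.15 in knockout retinas and 6.15, 6.24 and 6.24 in wildtype retinas. Its groups do not overlap, by a gap of less than 0.01 between knockout 3 and wildtype 1 (log2 difference -0.17, SE 0.08, adjusted p = 0.413, exact permutation p = 0.1, the smallest that 3 against 3 allows). Tie1, its partner receptor, had a difference of 0.11 (SE 0.09), Angpt2, a Tie2 ligand released by endothelial cells, of 0.05 (SE 0.13), and Ptprb, the phosphatase that dampens Tie2, of -0.04 (SE 0.11). Both Ptprb and Angpt2 were highest on knockout 2, at 7.22 and 5.49, with overlapping groups. Over all 32 members, 6, 8 and 4 were highest on knockout 1, 2 and 3, and 5, 8 and 1 on wildtype 1, 2 and 3.

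Junction and surface genes overlapped between genotypes in all 7 cases. Cdh5, VE-cadherin, the adhesion molecule of endothelial junctions, read 8.15, 8.34 and 8.38 in knockout and 8.24, 8.29 and 8.14 in wildtype retinas. Pecam1, the adhesion protein CD31, read 7.49, 7.45 and 7.33 against 7.27, 7.27 and 7.37, and only knockout 3 and wildtype 3 overlapped (log2 difference 0.12, SE 0.08, adjusted p = 0.540). Cldn5, the tight junction claudin of barrier vessels, read 7.005, 7.01 and 7.10 against 7.01, 7.11 and 6.93, a difference of 0.02 (95% interval -0.16 to 0.21). Icam2, an adhesion molecule for leukocytes, had the smallest unadjusted p of these 7 genes (0.15). It read 5.79, 5.88 and 5.75 in knockout retinas and 6.02, 5.999 and 5.81 in wildtype retinas, with knockout 2 above wildtype 3. The sialomucins Cd34 and Emcn and the junction protein Esam had differences of 0.06, 0.03 and 0.02, and 6 of the 7 genes were above 0.

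The barrier transport members showed no separation either. Slco1a4, an organic anion transporter of brain and retinal vessels, read 7.18, 7.06 and 7.16 in knockout and 7.01, 7.19 and 7.03 in wildtype retinas. Mfsd2a, which carries a lipid form of docosahexaenoic acid and restrains vesicle transport across the endothelium, read 7.495, 7.42 and 7.59 against 7.54, 7.42 and 7.42. The values of the genotypes interleave for both genes, with differences of 0.05 each (SE 0.08 each).

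Of the receptors and ligands that shape arteries, veins and sprouts, none stood apart. Dll4, the Notch ligand of sprouting tips and arteries, read 5.42, 5.48 and 5.30 in knockout retinas and 5.61, 5.38 and 5.52 in wildtype retinas (log2 difference -0.10, SE 0.09). Its receptor gene Notch4 was at 0.08, Acvrl1, which encodes the BMP receptor ALK1, at 0.01, its co-receptor gene Eng at -0.08 and the guidance receptor gene Robo4 at -0.06. The narrowest interval of the 5 was that of Acvrl1, from -0.17 to 0.18. Eng was lowest on knockout 1 (7.27) and highest on knockout 2 (7.67), with the wildtype arrays at 7.48, 7.64 and 7.55 between them.

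The transcription factors Sox17 and Sox18, which drive endothelial and arterial fate together, were the members with the highest differences. Sox18 read 5.90, 5.97 and 5.65 in knockout retinas and 5.65, 5.49 and 5.54 in wildtype retinas. The groups touch, since knockout 3 and wildtype 1 read nearly the same value (log2 difference 0.28, SE 0.10, unadjusted p = 0.024, adjusted p = 0.290, exact permutation p = 0.2). Sox17 read 5.82, 5.61 and 5.65 against 5.46, 5.64 and 5.41, with wildtype 2 above knockout 2 (difference 0.19, SE 0.10, adjusted p = 0.431). Lef1, a nuclear partner of beta-catenin in Wnt and Norrin signalling, was at 0.01 (SE 0.09), with both groups between 5.78 and 5.99.

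Among secreted factors and enzymes, Nos3, the endothelial nitric oxide synthase, read 6.52, 6.86 and 6.55 in knockout retinas and 6.42, 6.60 and 6.40 in wildtype retinas. Knockout 2 stood above the other 5 arrays (difference 0.17, SE 0.11, adjusted p = 0.552, and 0.06 without knockout 2). Vwf, the clotting protein von Willebrand factor, was at -0.14 (SE 0.11). Egfl7, a secreted protein of sprouting vessels, was at 0.06 (SE 0.11), and the values of both genes overlapped between genotypes.

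**Figure D2:**
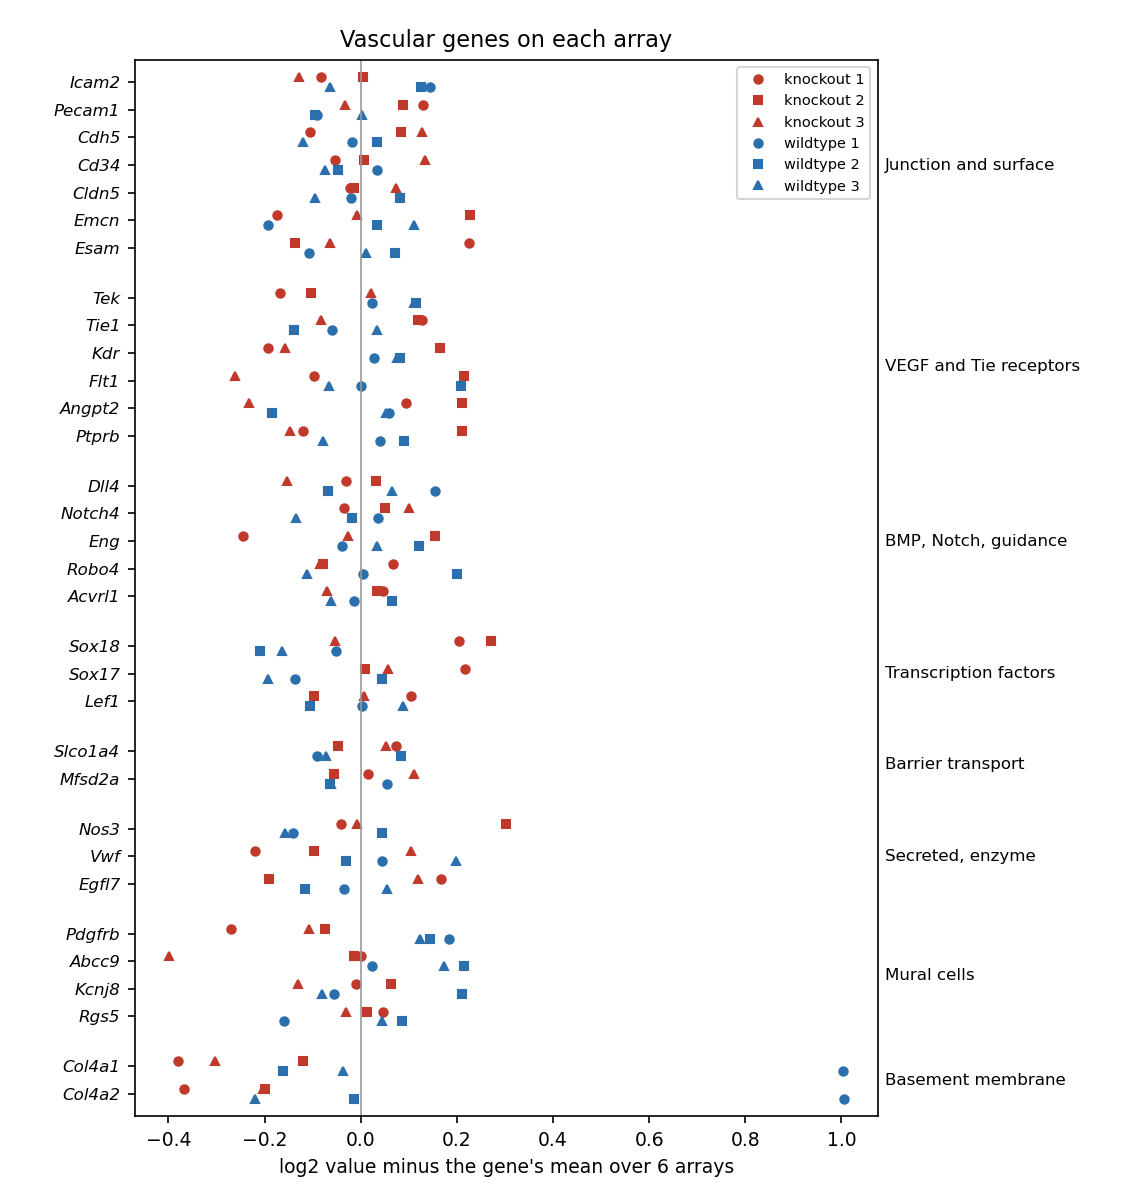
Log2 value of each vascular gene on each array minus that gene's mean over the 6 arrays (horizontal axis), with knockout arrays in red above wildtype arrays in blue for every gene and 1 symbol per replicate. Pdgfrb, Abcc9 and Tek are the genes whose colours do not overlap, and wildtype 1 lies about 1 log2 unit above the mean for Col4a1 and Col4a2.

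Of the 4 mural cell genes 0 were called, 3 were below 0 and 1, Rgs5, was above. Their mean was 7.87, 7.920 and 7.76 in knockout retinas and 7.921, 8.09 and 7.99 in wildtype retinas. These means do not overlap, but knockout 2 and wildtype 1 nearly touch. Pdgfrb, the receptor by which pericytes follow endothelial platelet-derived growth factor, read 6.90, 7.09 and 7.06 in knockout retinas and 7.35, 7.31 and 7.29 in wildtype retinas. The groups do not overlap, and the wildtype values lie within 0.1 of each other. The mean was 7.02 ± 0.10 in knockout and 7.32 ± 0.03 in wildtype retinas (SD, n = 3 each), a log2 difference of -0.30 (SE 0.08), or 1.23-fold lower in knockout. It had the smallest p of all members (unadjusted 0.0055) and missed the threshold over all genes (limma adjusted p = 0.161, exact permutation p = 0.1). Its difference stayed between -0.24 and -0.34 in all 17 alternative settings, where the adjusted p ran from 0.097 to 0.465. Several settings could not change the difference of a gene with 1 probe set: the brightness filters, the intensity trend, the replicate block and the handling of probe sets. Pdgfrb is also made by fibroblasts, and the fibroblast and sclera markers averaged 7.05 in knockout and 7.27 in wildtype retinas. Knockout 1, lowest for Pdgfrb, was lowest in those markers too, while knockout 2 and knockout 3 were at 7.34 and 7.20, within the wildtype range. The part of fibroblasts in the Pdgfrb values was not tested.

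Rgs5, a regulator of G protein signalling that marks pericytes, showed no such difference. It read 10.92, 10.89 and 10.85 in knockout retinas and 10.72, 10.96 and 10.92 in wildtype retinas, a difference of 0.02 with a 95% interval from -0.18 to 0.22. Its second, dimmer probe set read 6.53, 6.55 and 6.65 against 6.45, 6.38 and 6.62 (difference 0.10). Rgs5 was the only member with more than 1 probe set, and on neither did the groups separate.

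Kcnj8 and Abcc9 encode the channel pore (Kir6.1) and the sulphonylurea receptor subunit (SUR2) of the potassium channel that ties pericyte tone to ATP, and they are neighbours on chromosome 6. Their start regions are shown because they encode subunits of 1 channel side by side; whether their differences differ from each other was not tested. The sequences are RefSeq windows of build GRCm38.p6, 250 bases before to 50 after an annotated start, both on the minus strand. Kcnj8 is at chr6:142571565-142571864 and Abcc9 at chr6:142702225-142702524. Each is 1 window of its gene, and the Abcc9 gene is annotated past its window, to 142702766. Capitals mark any match to the CCAAT box (CCAAT), the GC box (GGGCGG) or an ETS-type motif (CAGGAA) on either strand.
Kcnj8: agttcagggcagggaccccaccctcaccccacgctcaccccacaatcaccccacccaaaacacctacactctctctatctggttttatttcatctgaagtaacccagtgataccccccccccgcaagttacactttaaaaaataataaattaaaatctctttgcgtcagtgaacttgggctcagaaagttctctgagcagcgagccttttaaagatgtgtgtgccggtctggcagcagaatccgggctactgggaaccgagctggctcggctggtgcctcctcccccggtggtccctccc
Abcc9: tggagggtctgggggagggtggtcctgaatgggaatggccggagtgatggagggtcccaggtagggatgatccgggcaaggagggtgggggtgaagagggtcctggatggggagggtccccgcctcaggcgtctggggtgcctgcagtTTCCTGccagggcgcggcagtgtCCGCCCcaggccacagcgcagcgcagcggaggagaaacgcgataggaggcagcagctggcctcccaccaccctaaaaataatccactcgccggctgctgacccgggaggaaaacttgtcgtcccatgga
The Kcnj8 window holds none of the 3 motifs and is 53.3% G and C, while the Abcc9 window holds a reverse ETS-type match and a reverse GC box and is 65.7% G and C.

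Abcc9 read 7.04, 7.03 and 6.64 in knockout retinas and 7.07, 7.26 and 7.22 in wildtype retinas. The groups do not overlap, but knockout 1 and wildtype 1 lie 0.02 apart and knockout 3 carries much of the difference (-0.27, SE 0.12, adjusted p = 0.373, exact permutation p = 0.1). Without knockout 3 it was -0.14. Kcnj8 read 6.59, 6.67 and 6.47 against 6.55, 6.82 and 6.52, with overlapping groups and a difference of -0.05 (95% interval -0.28 to 0.18).

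**Figure D3:**
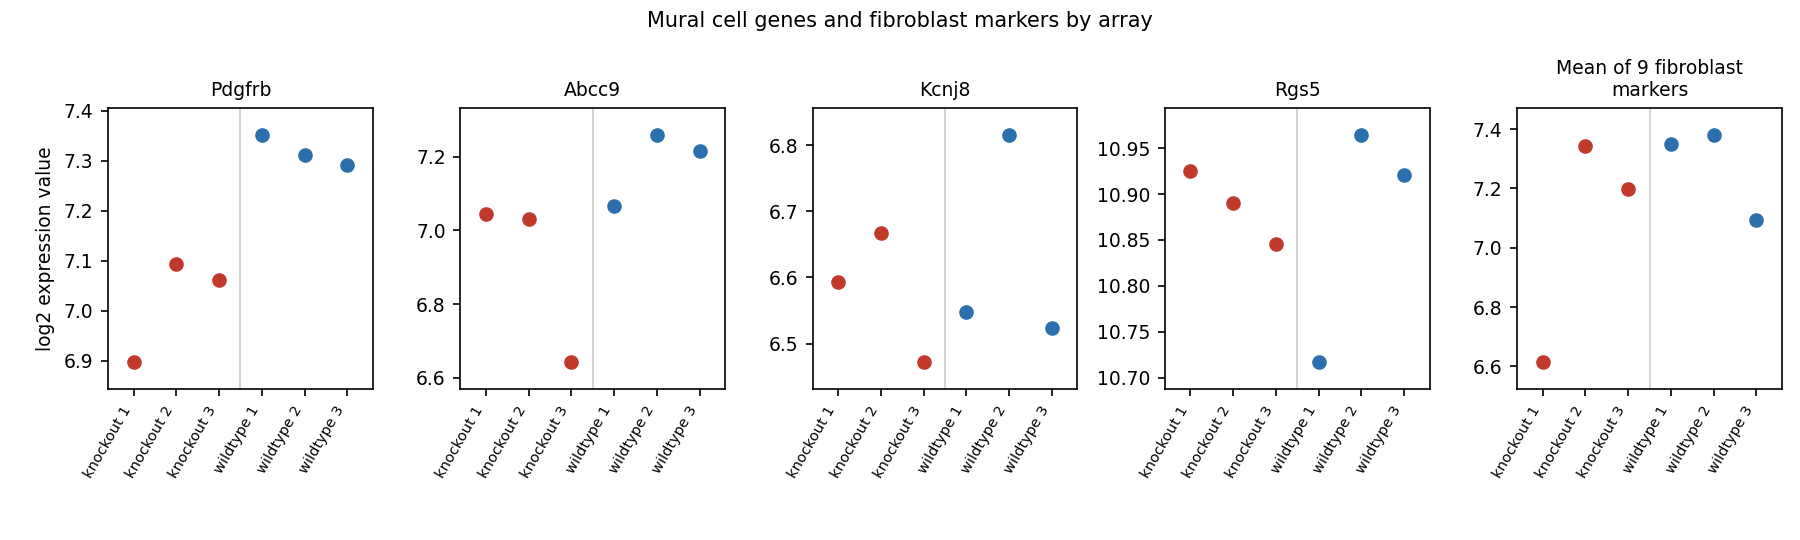
Log2 values of the 4 mural cell genes and the mean of 9 fibroblast and sclera markers on each array, knockout arrays in red at left and wildtype arrays in blue at right (each panel has its own scale, not starting at 0). Pdgfrb and Abcc9 separate the genotypes, Kcnj8 and Rgs5 do not, and knockout 1 is lowest in Pdgfrb and in the fibroblast markers.

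Col4a1 and Col4a2 encode the collagen IV chains that join into 1 fibre network in the basement membranes of vessels, of the inner retinal surface and of the lens capsule. They had the widest range of all members and were high together on 1 array. Their start regions are shown because the genes lie head to head. The RefSeq windows of build GRCm38.p6 are chr8:11312777-11313076 on the minus strand for Col4a1 and chr8:11312555-11312854 on the plus strand for Col4a2. The starts on which these windows are built are 21 bases apart, while the Col4a1 gene is annotated further, to 11312889. Capitals mark the 78 bases that both windows hold, in opposite orientation.
Col4a1: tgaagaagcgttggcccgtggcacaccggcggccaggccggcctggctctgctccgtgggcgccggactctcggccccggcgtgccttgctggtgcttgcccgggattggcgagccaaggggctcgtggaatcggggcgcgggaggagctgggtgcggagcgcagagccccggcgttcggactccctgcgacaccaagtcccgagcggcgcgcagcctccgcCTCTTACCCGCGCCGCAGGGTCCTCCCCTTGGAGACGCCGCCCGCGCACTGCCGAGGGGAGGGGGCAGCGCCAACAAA
Col4a2: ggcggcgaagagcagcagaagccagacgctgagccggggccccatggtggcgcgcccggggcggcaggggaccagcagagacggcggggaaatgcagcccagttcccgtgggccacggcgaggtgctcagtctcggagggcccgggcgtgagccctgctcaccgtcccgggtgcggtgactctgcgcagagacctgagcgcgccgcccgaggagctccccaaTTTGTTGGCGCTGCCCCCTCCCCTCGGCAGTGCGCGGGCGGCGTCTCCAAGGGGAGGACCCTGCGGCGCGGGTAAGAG
Each window holds CCAAT and GGGCGG on at least 1 strand and CAGGAA on neither, and they are 74.0% and 73.7% G and C.

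Col4a1 read 6.80, 7.07 and 6.88 in knockout retinas and 8.19, 7.02 and 7.15 in wildtype retinas, and Col4a2 read 6.32, 6.49 and 6.49 against 7.69, 6.68 and 6.47. Wildtype 1 stands over 1 log2 unit above the other wildtype arrays for both genes, and the remaining values overlap between genotypes. The log2 differences of -0.54 (SE 0.27, adjusted p = 0.437) and -0.51 (SE 0.27, adjusted p = 0.464) rest on that array: without wildtype 1 they were -0.17 and -0.14. Wildtype 1 was also the array richest in lens RNA. Knockout 2, the other lens-rich array, had the highest Col4a1 of the knockout arrays, 7.07, but by less than 0.3. Without both lens-rich arrays the differences were -0.24 and -0.17.

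Of the 21 other basement membrane genes tested, 0 were called and 19 were below 0 (median -0.24, and -0.11 without knockout 1), and 10 of the 21 were highest on wildtype 1. At an unadjusted p under 0.05 there were 7, all lower in knockout, where over all 15619 genes 1015 were lower at that p and 1092 higher. They were the laminin genes Lama1, Lamb1 and Lamc3, the collagen genes Col4a5 and Col18a1, Hspg2, which encodes perlecan, and Fn1, which encodes fibronectin. Leaving out single knockout arrays changed that count to 2 (knockout 1), 7 (knockout 2) or 4 (knockout 3). For single wildtype arrays it became 0 (wildtype 1), 2 (wildtype 2) or 6 (wildtype 3). It was 6 with the lens markers as a covariate. Without both lens-rich arrays 6 were lower and 1 higher in knockout, and 3 were lower with the pigment epithelium markers as a covariate or with the replicate number as a block. With 1 array left out, 0 of the 21 were higher in knockout at that p. The share of all genes, lower and higher together, was then between 8.57% and 16.4%. Lama1 read 5.70, 5.88 and 5.69 in knockout retinas and 6.28, 5.95 and 6.03 in wildtype retinas (-0.33, SE 0.11, adjusted p = 0.247), with no overlap. Hspg2 was at -0.32, Lamc3 at -0.30 and Col4a5 at -0.46. Nid1, whose product nidogen links laminin to collagen IV, was picked after its values were seen. It read 6.97, 7.86 and 7.45 against 9.73, 7.77 and 7.59, highest on wildtype 1 like the collagen IV pair and second on knockout 2. The part of lens capsule in these values was not tested.

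**Figure D4:**
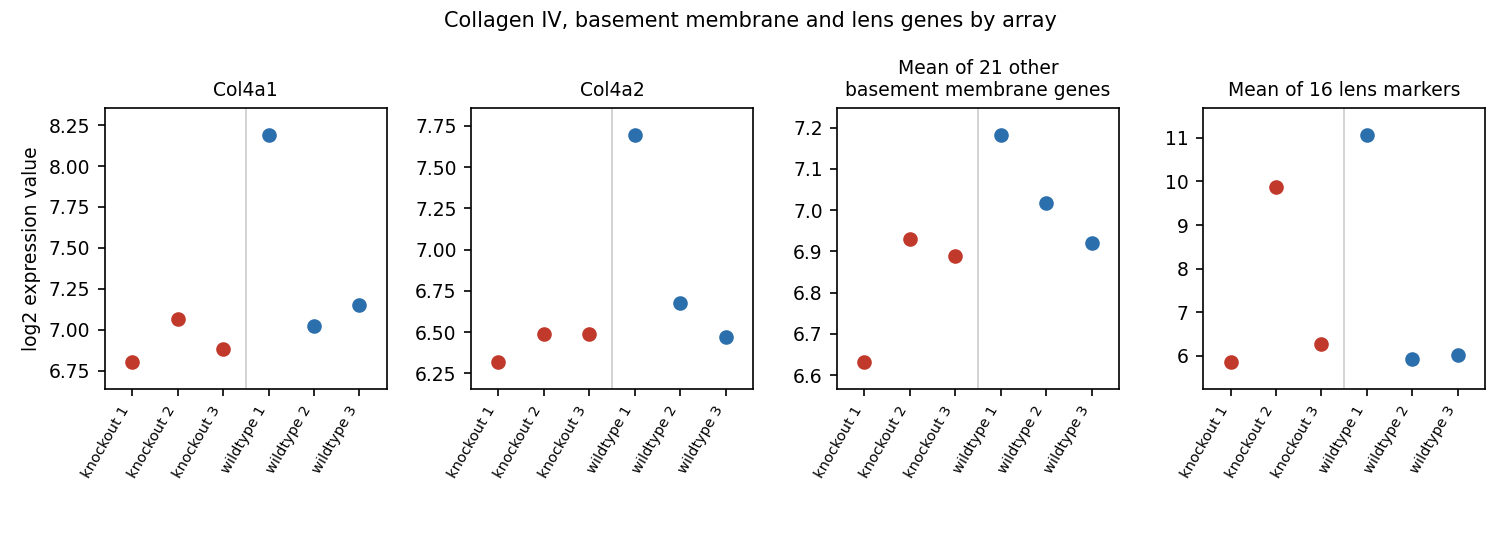
Log2 values of Col4a1 and Col4a2, the mean of 21 other basement membrane genes and the mean of 16 lens markers on each array, knockout arrays in red at left and wildtype arrays in blue at right (each panel has its own scale, not starting at 0). Wildtype 1 is highest in all 4 panels, and knockout 2 is second for the lens markers, at 9.88.

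Promoter windows were found for 20 of the 32 members (25 windows, build GRCm38.p6). A CAGGAA match on either strand, the kind of site bound by ETS factors such as Erg and Fli1 that drive endothelial genes, was in 13 of 25 windows (52%), against 30.6% of all 32851 windows. GGGCGG was in 11 of 25 (44%) against 35.7% of all, and CCAAT in 8 of 25 (32%) against 37.4%. The median share of G and C was 59% in the members' windows and 52.7% in all windows. A match is a run of letters, not a measured binding site, and windows of 1 gene are not independent.

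Other endothelial and mural genes, taken from lists and not from the 32, gave no call either. Of 26 further endothelial genes tested 0 were called, with 9 above 0 and 17 below (median -0.06, and -0.02 without wildtype 2). Of the 26 endothelial members 17 were above 0 and 9 below (median 0.03). The groups did not overlap for 3 of these 26 further genes, where 20.3% of all genes did not overlap. At an unadjusted p under 0.05 there were 2 of the 26, where 13.5% of all genes reached that p. These 2 were Plvap, which forms the diaphragms of leaky, fenestrated capillaries such as those of the choroid, and Clec14a, an endothelial lectin. Plvap read 5.64, 6.04 and 6.13 in knockout retinas and 6.29, 6.39 and 6.35 in wildtype retinas (-0.41, SE 0.13, adjusted p = 0.214), without overlap. Without knockout 1, where the pigment epithelium markers were lowest, its difference was -0.26. Clec14a read 5.51, 5.52 and 5.74 against 5.79, 6.07 and 5.84, also without overlap (-0.31, SE 0.10, adjusted p = 0.265). Nostrin and Podxl had the next smallest p-values, with differences of -0.13 and 0.14.

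Of 18 further mural genes 0 were called (median -0.10, and -0.03 without knockout 1), 15 being below 0. Ndufa4l2, a mitochondrial protein enriched in pericytes, read 6.70, 6.52 and 6.62 in knockout retinas and 6.19, 6.02 and 6.22 in wildtype retinas. Its groups are well apart, in the opposite direction to Pdgfrb (0.47, SE 0.09), and it missed the threshold (adjusted p = 0.060). Its adjusted p ran from 0.030 to 0.269 over 17 alternative settings and passed in 3 of them, with a log2 floor of 6, an intensity trend or array weights. Cspg4, the pericyte proteoglycan NG2, was at -0.23 (SE 0.09, adjusted p = 0.345), and Gucy1b1, a subunit of the nitric oxide receptor, at -0.24 (SE 0.10, adjusted p = 0.320). Vtn, which encodes vitronectin, was at -0.14. Acta2, the smooth muscle actin, chosen after its values were seen, read 8.89 on knockout 1 against 10.24 to 10.68 on the other 5 arrays. The fibroblast gene Dcn was also lowest on knockout 1, at 7.74 against 9.45 to 9.92.

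Ligands and receptors upstream of the vessel gave no call. Of 11 VEGF pathway genes tested 9 were below 0 (median -0.08, and -0.13 without knockout 2). Vegfa, the main VEGF ligand, read 8.997, 9.15 and 9.14 in knockout retinas and 9.16, 9.33 and 9.25 in wildtype retinas, just without overlap (-0.15, SE 0.08, adjusted p = 0.475). The tip cell receptor Unc5b was at -0.23, the ligand Vegfc at -0.24 and the co-receptor Nrp2 at -0.18. Of 6 angiopoietin pathway genes 3 were above 0 and 3 below (median near 0, and -0.07 without knockout 2), with Angptl4, a secreted regulator of lipoprotein lipase, at -0.12 and the Tie2 ligand Angpt1 at -0.07. The integrin gene Itga5 was at 0.08 and the adaptor gene Dok2 at 0.03.

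In the Norrin and Wnt list 0 of 19 were called (median -0.04, but 0.007 without knockout 1). Ndp, which encodes Norrin, read 6.89, 7.002 and 7.02 in knockout retinas and 6.80, 6.76 and 6.89 in wildtype retinas (0.15, SE 0.08, adjusted p = 0.443). Axin2, a feedback target of Wnt signalling, read 6.59, 6.71 and 6.75 against 7.05, 6.98 and 6.96, without overlap (-0.31, SE 0.08, adjusted p = 0.139), but its second, dimmer probe set had a difference of 0.04. Lgr5, a receptor for R-spondins that is also a marker of some amacrine cells, read 7.24, 7.46 and 7.11 against 7.71, 7.75 and 7.81 (-0.48, SE 0.10, adjusted p = 0.084). Its adjusted p ran from 0.031 to 0.2998 over 17 alternative settings and passed in 5. The second, dimmer probe set of Lgr5 had a difference of -0.22. Wnt7a, a Wnt ligand, was at -0.45 and reached 6.08 on wildtype 1 against 4.95 to 5.27 elsewhere.

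The Notch list had 0 of 13 called (median 0.02, but -0.008 without wildtype 3). Hey2, a Notch target in arteries that Muller glia also make, read 8.80, 8.73 and 8.90 in knockout and 8.42, 8.36 and 8.54 in wildtype retinas (0.37, SE 0.09, adjusted p = 0.106), with no overlap. The feedback regulator Nrarp was at 0.16, the ligand gene Jag2 at 0.22 and the receptor gene Notch2 at -0.20. In the BMP and TGF-beta list 0 of 22 were called (median -0.06, but 0.03 without knockout 1 and -0.15 without knockout 2). Lrg1, a secreted modulator of endothelial TGF-beta signalling, read 5.15, 5.15 and 5.24 against 5.48, 5.49 and 5.49 (-0.31, SE 0.07, adjusted p = 0.109). Tgfb3 and Tgfb2, both ligands, were at -0.33 and -0.29, and the signal transducer Smad9 at -0.28.

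The barrier list held the only called gene among all these lists. Cav1, caveolin-1, the coat protein of caveolae in endothelial cells, which Muller glia also make in quantity, rose to 7.42, 7.41 and 7.41 in knockout retinas, against 6.84, 6.84 and 6.84 in wildtype retinas. The values within each genotype agree to within 0.02, and the difference was 0.57 (SE 0.07, limma adjusted p = 0.010), a 1.49-fold higher level in knockout. Its size stayed between 0.56 and 0.57 in 17 alternative settings. Several of these could not change it: the brightness filters, the intensity trend, the replicate block and the handling of probe sets. The call was lost in 5 of the 17: without wildtype 1, 2 or 3 (adjusted p = 0.054, 0.073 and 0.064), without both lens-rich arrays (0.083) and with the replicate number as a block (0.060). Jam2, a junctional adhesion molecule, read 11.09, 11.27 and 11.09 against 10.57, 10.64 and 10.80 (0.48, SE 0.09, adjusted p = 0.068). The efflux pump gene Abcb1a was at -0.20 and the amino acid transporter gene Slc7a5 at -0.24, and 14 of the 20 genes of this list were below 0 (median -0.07, and -0.03 without knockout 1). Astrocyte markers, some of which Muller glia also make, averaged 7.82 to 7.94 in knockout and 7.74 to 7.83 in wildtype retinas (7 genes). Of these 7 genes 0 were called, 5 were above 0 and 2 below, with log2 differences from -0.41 for Gja1 to 0.44 for Gfap. Gja1 read 8.83 on knockout 1 against 9.92 to 10.25 on the remaining arrays. At an unadjusted p under 0.05 there were 3, Gfap, Aqp4 and S100b, all higher in knockout. Over all 15619 genes 1092 were higher at that p. The knockout values lay wholly above the wildtype values for 3 of the 7 genes, and for 1675 of all genes. The part of glia in the Cav1 and Jam2 values was not tested.

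**Figure D5:**
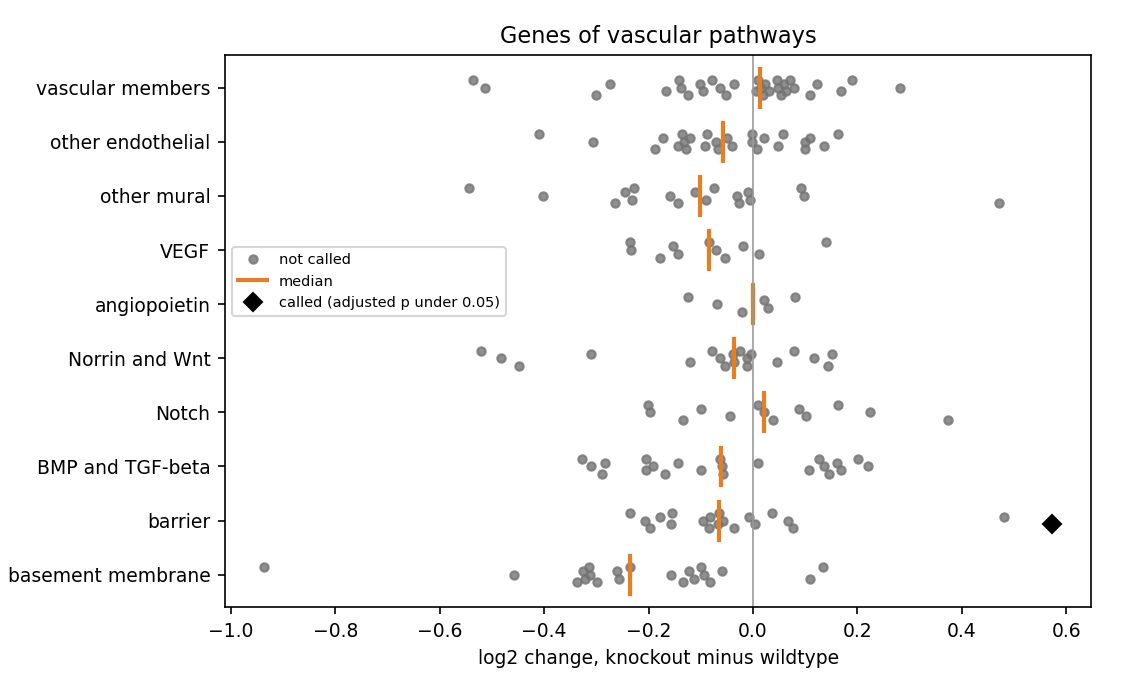
Log2 difference, knockout minus wildtype (horizontal axis), of every tested gene in the 32 vascular genes and in 9 further lists, with an orange line at each list's median and a black diamond for a gene called by limma. The diamond is Cav1 at 0.57, the lowest point is Nid1 at -0.94, and the medians run from -0.24 for basement membrane to 0.02 for Notch.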

How the data were processed

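Total RNA (100 ng) of 6 retina samples was hybridised to Affymetrix mouse gene arrays, per the labels' protocols. The deposited values are log2 expression per probe set, made with RMA (background correction, quantile normalization, probe summary) per the submitters' processing notes; neither its version nor the annotation build is stated in these sources. Array medians lay between 5.57 and 5.64, so a change in total RNA per cell would not be seen.

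Of 41345 probe sets, 23521 carried exactly 1 gene symbol, 1814 more than 1 and 16010 no symbol. A gene was represented by its probe set with the highest mean over 6 arrays. The genotype effect was fitted alone by lmFit and eBayes of limma 3.58.1 (R 4.3.3), 2-sided, with Benjamini-Hochberg adjustment over 15619 genes. The fit, but not the choice of probe sets, was tested on simulated data. SE is limma's moderated standard error. Exact permutation tests over samples are 2-sided. Members and lists were chosen with earlier results of these data known, so no list was tested.

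Values on every array are given for members at an unadjusted p under 0.05, for the 4 widest in range, the 3 brightest and the smallest p of each role. Of each further list, the 4 genes with the smallest p are named. Other genes with values on every array were added to these afterwards. Promoter windows are RefSeq's. Figures were drawn with matplotlib 3.10.9.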

Additional observations from a re-analysis of the deposited data

How the results depend on the processing

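No member was called in any of 17 alternative settings, and the smallest adjusted p of a member was 0.097 (Pdgfrb, log2 floor of 6, which left 25 members). The median difference of the members, 0.01, was -0.034 without the 2 lens-rich arrays and ran from -0.029 to 0.024 without single arrays. The count of members whose groups do not overlap, 3, was 6 with a second quantile normalization (18.8%, against 21.7% of all genes) and 14 without the 2 lens-rich arrays (43.8%, against 45.0% of all genes, since fewer arrays separate more easily), and it ran from 5 to 10 without single arrays (15.6% to 31.3%, against 26.8% to 35.4% of all genes). Of the 32 members, 19 kept the sign of their difference throughout and 13, none of them called, did not. For a member with 1 probe set, the filters, the intensity trend, the replicate block and the handling of probe sets could not change the sign. Counts at an unadjusted p under 0.05 with arrays left out were added after seeing the data and ran from 1 to 4 members over all settings. The members' share was below that of all genes as reported (6.25% against 13.5%), but not without wildtype 2 (9.38% against 8.57%), and it was close to it without wildtype 1 (9.38% against 9.41%) and with lens markers as a covariate (12.5% for both). Calls over all genes numbered 129, 282 with an intensity trend, 209 with a floor of 6, 74 with no filter, 66 with pigment epithelium markers as a covariate, 36 without both lens-rich arrays and 25 to 78 without knockout 1, knockout 3 or any 1 wildtype array.

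Same-numbered samples did not deviate together (correlations of deviations -0.27, -0.38 and -0.06). Arrays also differed in lens and pigment epithelium RNA, so these correlations cannot show whether same-numbered samples were paired. Whether the replicate numbers mark pairs is therefore not known. With the replicate number as a block, 0 members were called, while 68 genes were called over all. The count of members that do not overlap, 3, and the median, 0.01, cannot change in that setting and say nothing about pairing.

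Having 3 arrays per genotype sets the precision, with a median SE of 0.097 over the members.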
